A study of Mus musculus with 21 samples.

Results

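The transcripts of 9 myokines, factors that contracting skeletal muscle is known to make or release, were followed in quadriceps muscle before and after exhaustive running. The genes were chosen by name from the 53738 gene symbols of the expression table: Il6, Il15, Lif, Fndc5, Metrnl, Ostn, Gdf15, Fgf21 and Sparc. All 9 were in the table. Wild-type male C57/Bl6 mice aged 22 to 26 weeks were divided into 7 groups of 3 libraries. Sedentary mice did no exercise. Untrained mice ran on a treadmill to exhaustion with no training before it, and trained mice ran the same kind of bout after 12 weeks of voluntary wheel running. Mice of both kinds were killed at 1 of 3 times after the bout, 0 h, 6 h and 72 h. Bulk muscle RNA was sequenced, so a level is an average over fibres and all other cells of the muscle, and fewer cells of a type cannot be told apart from less RNA per cell. No group was trained without a bout.

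Myokines act on the muscle itself or on distant organs. Il6 and Lif belong to the cytokine family that signals through the shared receptor chain encoded by Il6st. Il15 is a cytokine that is presented on its own receptor chain, Il15ra, and Fndc5 encodes the membrane protein from which irisin is cut. Metrnl encodes meteorin-like, a secreted protein linked to exercise and cold. Ostn encodes osteocrin, or musclin, which binds the natriuretic peptide clearance receptor. Gdf15 and Fgf21 encode hormones of the cell stress response, and Sparc encodes a collagen-binding matrix protein.

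Levels are given as TPM, the share of a transcript in its library after transcript length is divided out, so that different genes can be set side by side. Sequencing depth is unknown from such values, and no counting error can be given for a low one. Untrained 0 h replicate 1 and trained 0 h replicate 1 held identical values at all 53738 symbols, which leaves 20 distinct libraries, and results on the 0 h groups are also given without this shared library where they turn on it. All 8 markers of skeletal muscle fibres were present, with a summed level of 82157 to 109753 TPM in every library, as the tissue label states. Neutrophil markers were nearly lacking, since all 6 lay below 1 TPM on average. The genome of the mitochondrion took 37.7% to 48% of the TPM total. Differences are on the log2(TPM + 0.5) scale from limma, with p adjusted over the 11819 genes that averaged at least 1 TPM. A gene is called, and said to have risen or fallen, where its adjusted p is below 0.05 and its change on that scale is at least 1.5-fold in either direction. Nothing in the labels ties a library to a named animal, so p measures the spread between libraries, which may in part be technical.

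The 9 transcripts fell into 2 classes of abundance. Sparc averaged 59.7 TPM over the 21 columns, Fndc5 20.7, Il15 5.15, Ostn 2.48 and Metrnl 2.29 TPM, and these 5 were tested. Il6, Lif, Gdf15 and Fgf21 lay below 1 TPM in all 7 groups and in every library, with a highest value among them of 0.190 TPM, and were not tested. The most abundant transcripts were therefore a matrix protein and the irisin precursor, while the cytokine and hormone transcripts known from strongly stressed muscle stood near 0. Among the tested genes, libraries of the same group differed least for Fndc5, with a pooled SD of 0.108 on the log2 scale, and most for Il15 at 0.349 and Ostn at 0.364, against a median of 0.1503 over all tested genes. Metrnl at 0.184 and Sparc at 0.160 lay near that median.

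**Figure D1:**
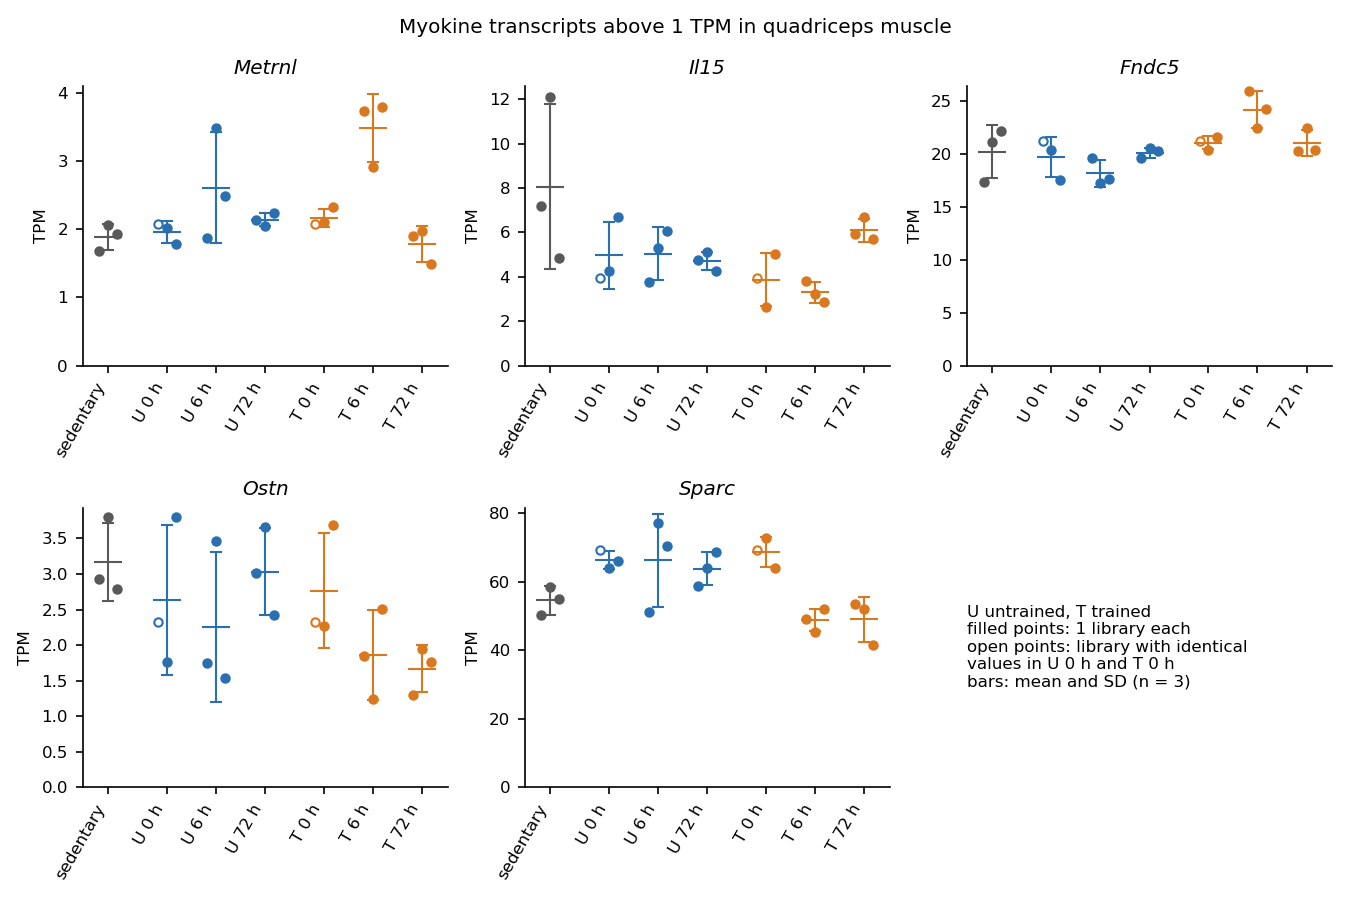
TPM of the 5 tested myokine transcripts in each library (points) by group, with the mean and SD of 3 libraries (bars). Blue marks untrained and orange trained muscle, and the open points are the library found in both 0 h groups. Trained 6 h muscle held the highest group mean of Metrnl and Fndc5 and the lowest of Il15 and Sparc.

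Calls among the 5 tested transcripts were few, and each of the 4 involved trained muscle, though no difference between trained and untrained muscle was called. Against sedentary muscle, 2 of 5 were called at trained 6 h, where 3.85% of all tested genes were called: Metrnl rose and Il15 fell. At trained 0 h, 1 was called, a fall of Il15, beside 3.74% of all genes. None of the 5 was called at untrained 0 h, untrained 6 h, untrained 72 h or trained 72 h, where 3.59%, 4.42%, 0.00846% and 0.169% of all genes were called. At an unadjusted p below 0.05, these 4 comparisons held 2, 1, 1 and 1 of the 5 members, beside 24.2%, 21.8%, 5.77% and 11.7% of all genes. Between trained and untrained muscle at the same time, no member was called at any of the 3 times, beside, in order of time, 0%, 2.01% and 0.245% of all genes. The counts at an unadjusted p below 0.05 were 0, 3 and 2 members, beside 1.21%, 18.3% and 15% of all genes. At 0 h that share was 143 of 11819 genes, and the 2 groups share a library there.

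Along recovery, the only call was a fall of Metrnl from 6 h to 72 h in trained muscle, a step in which 3.48% of all genes were called. From 0 h to 6 h no member was called in untrained muscle, beside 4.64% of all genes, or in trained muscle, beside 6.46%. From 6 h to 72 h in untrained muscle none was called either, beside 4.04%. In untrained muscle, 0 members had an unadjusted p below 0.05 in either step, beside 27.1% and 21.8% of all genes. In trained muscle 3 did from 0 h to 6 h, beside 38.6% of all genes, and 3 from 6 h to 72 h, beside 22%. These steps share libraries with the comparisons against sedentary muscle and are not independent of them.

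**Figure D2:**
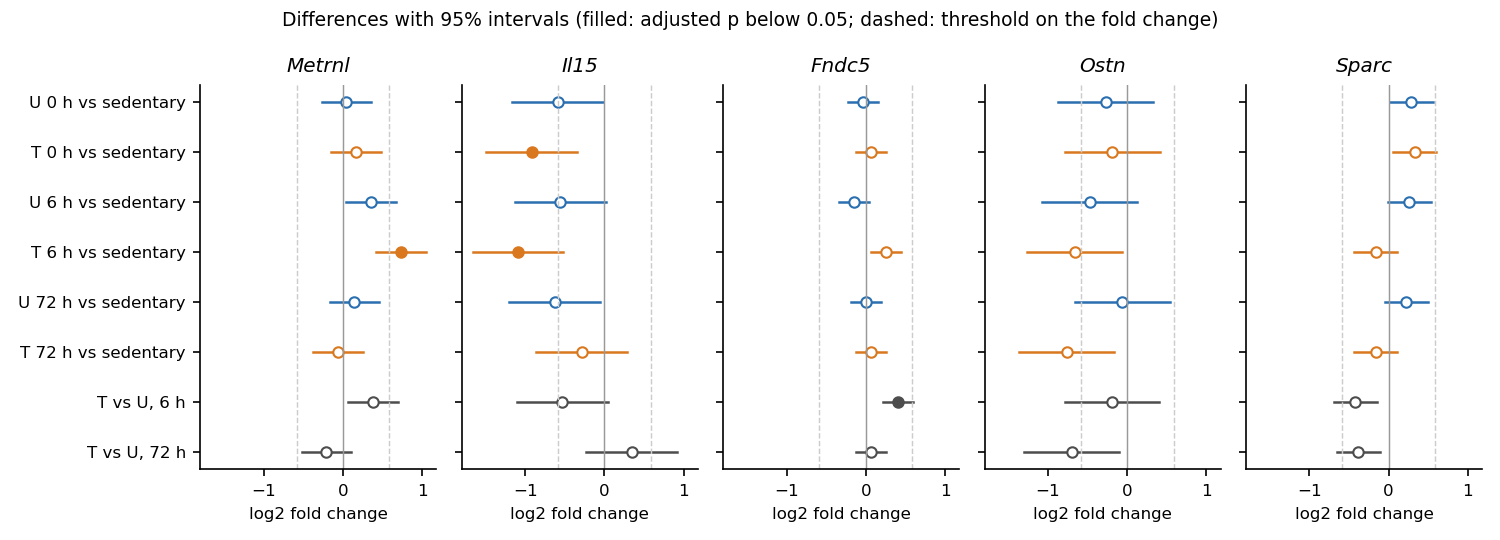
Log2 fold changes (x axis) of the 5 tested transcripts with 95% intervals from limma for 6 comparisons with sedentary muscle and for trained against untrained muscle at 6 h and 72 h. Filled points have an adjusted p below 0.05, and dashed lines mark a change of 1.5-fold. Filled points appear for Metrnl at trained 6 h, Il15 at trained 0 h and 6 h, and Fndc5 between trained and untrained muscle at 6 h.

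Metrnl rose in trained muscle 6 h after the bout and fell back by 72 h. The gene lies on chromosome 11 of GRCm39, from base 121592370 to 121611770 on the plus strand. The 3 sedentary libraries held 1.68, 2.06 and 1.93 TPM, and the 3 trained 6 h libraries held 3.73, 2.91 and 3.79 TPM. All 3 trained libraries stood above all 3 sedentary ones. The change was +0.73 on the log2 scale (SE 0.15, 95% interval 0.42 to 1.04, adjusted p = 0.00476), or 1.66-fold. In this comparison 28.9% of all tested genes had libraries that stood fully apart, in either direction. Trained 0 h libraries held 2.07, 2.11 and 2.32 TPM, and the step from 0 h to 6 h was +0.57 (SE 0.15, adjusted p = 0.0115), just under the threshold on size. Under 3 of the other processing choices, a smaller pseudocount and both rescalings, that step passed the threshold too, at +0.65 to +0.82. Without the shared 0 h library it weakened to +0.55 with an adjusted p of 0.0472. The lowest value over the processing choices was +0.49. Trained 72 h libraries held 1.90, 1.98 and 1.48 TPM, all below the 6 h libraries, and the fall was -0.80 (SE 0.15, adjusted p = 0.00256). From 6 h to 72 h, 31.2% of all tested genes stood apart in trained muscle.

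In untrained muscle at 6 h the libraries spread widely, at 1.86, 3.48 and 2.48 TPM. Replicate 1 lay within the sedentary range and the other two lay above it. The difference from sedentary muscle was +0.35 (SE 0.15, adjusted p = 0.169), and that between trained and untrained muscle at 6 h was +0.38 (95% interval 0.07 to 0.69, adjusted p = 0.172). A difference in Metrnl between trained and untrained muscle at 6 h was therefore not called. The same replicate 1 had a macrophage marker sum of 35.2 TPM, against 74.2 and 59.0 TPM in the other two libraries. It was also lowest in fibro-adipogenic sums, at 340 TPM against 717 and 535 TPM, and in tenocyte sums, at 31.5 TPM against 115 and 58.5 TPM. Macrophage sums were 33.3 to 48.8 TPM at trained 6 h and 39.5 to 43.4 TPM in sedentary muscle, so the groups overlapped. Over the 20 distinct libraries, Metrnl had a Pearson r of 0.099 with the macrophage sum and 0.328 with the fibro-adipogenic sum. Its r was 0.082 with the tenocyte sum and -0.380 with the muscle fibre sum. The part of other cell types in the Metrnl values was not tested.

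Metrnl is known as a target of the PGC-1 coactivator pathway. Ppargc1a, which encodes PGC-1α, was added after its values were seen and is shown beside it. The part of PGC-1α in the Metrnl values was not tested. Ppargc1a rose from 3.90 ± 0.74 TPM in sedentary muscle (SD, n = 3) to 27.1 ± 5.49 TPM at untrained 6 h and 38.9 ± 9.75 TPM at trained 6 h. The log2 changes were +2.65 (SE 0.20, adjusted p = 2.78e-07) and +3.15 (SE 0.20, adjusted p = 3.97e-07). At 72 h it was back at 4.05 ± 0.45 and 4.04 ± 0.32 TPM. Of 17 PGC-1 and exercise signalling genes, all tested, 4 rose at untrained 6 h (Crem, Nr4a3, Ppargc1a and Sik1) and their median change was 0.119, against 0.0148 for all genes. At trained 6 h, 4 rose (Crem, Esrrg, Nr4a3 and Ppargc1a) and Nr4a1 fell, with a median of 0.0504 against -0.0146. The Nr4a1 call was lost in the fit without the shared 0 h library (adjusted p = 0.0621). Esrrg, an orphan nuclear receptor that works with PGC-1α and was picked out here after its values were seen, differed between the 2 states at 6 h. It held 10.6 ± 1.38 TPM in trained and 4.23 ± 0.72 TPM in untrained muscle, a difference of +1.24 (SE 0.14, adjusted p = 9.18e-05).

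**Figure D3:**
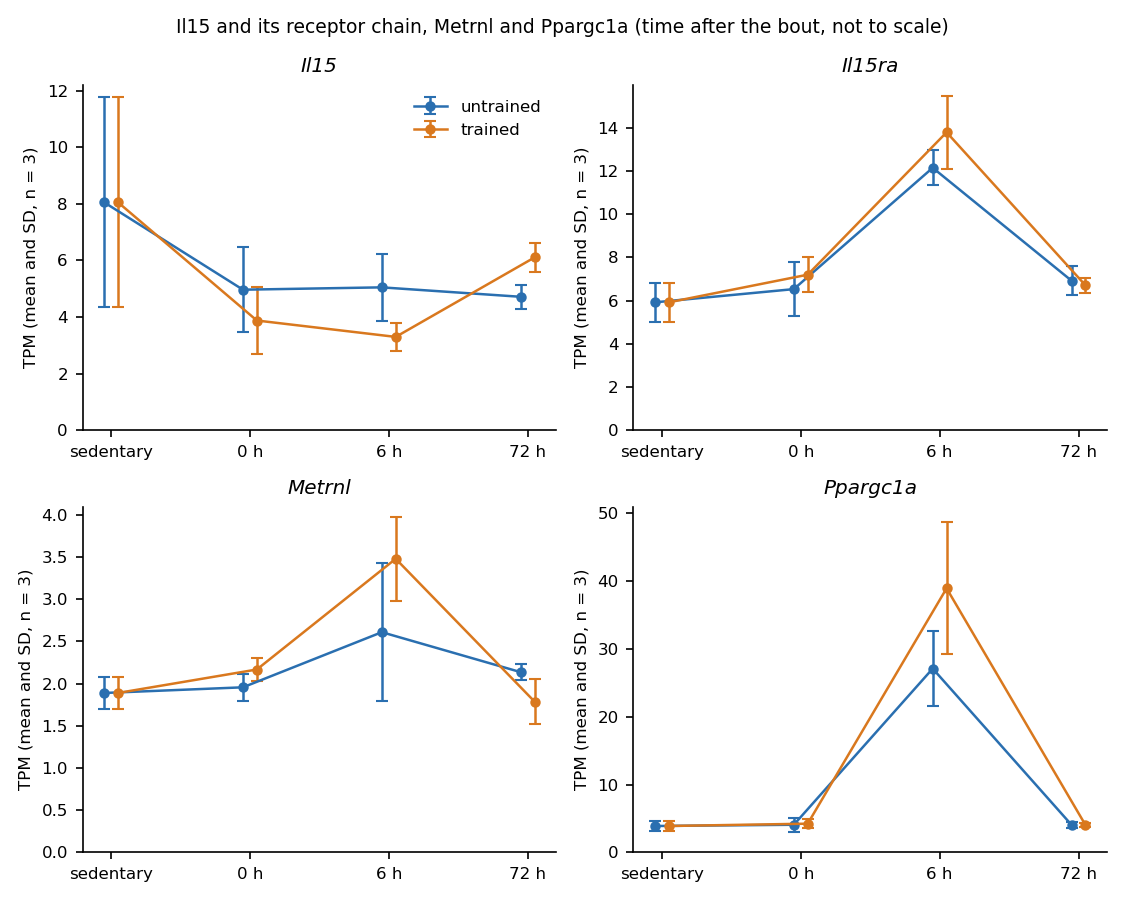
Mean TPM with SD (n = 3) of Il15, Il15ra, Metrnl and Ppargc1a in sedentary muscle and at the 3 times after the bout (x axis, not to scale) in untrained (blue) and trained (orange) mice. Il15ra and Ppargc1a peak at 6 h in both states, Il15 is lowest at 6 h in trained muscle, and Metrnl is highest there.

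Il15 fell in trained muscle while the transcript of its receptor chain rose in both states at 6 h. Il15 lies on chromosome 8, from base 83054226 to 83129874 on the minus strand. Sedentary libraries held 7.19, 12.1 and 4.85 TPM, a spread of more than 2-fold within the control group. Trained 6 h libraries held 3.82, 3.21 and 2.85 TPM, all below the lowest sedentary one. The change was -1.09 on the log2 scale (SE 0.27, 95% interval -1.66 to -0.52, adjusted p = 0.0167), a ratio of 0.470. Without sedentary replicate 2, the highest library, it was -0.77 with an adjusted p of 0.0792, and without trained 6 h replicate 3 it was -1.004 with an adjusted p of 0.0661. The call rested on each of these libraries. Between trained 6 h and sedentary muscle, the libraries of 28.9% of all tested genes stood apart.

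Trained 0 h libraries held 3.95, 2.66 and 5.02 TPM of Il15, and the highest of them lay above the lowest sedentary library. The call at that time, -0.91 (SE 0.27, adjusted p = 0.0446), was lost without the library shared with the untrained group, at -0.95 with an adjusted p of 0.0986. It was also lost, at an adjusted p of 0.101 to 0.220, without sedentary replicate 1 or 2 and, at 0.146, without trained 0 h replicate 2. Untrained libraries held 3.95 to 6.68 TPM at 0 h, 3.76 to 6.08 TPM at 6 h and 4.28 to 5.12 TPM at 72 h. Those 3 differences from sedentary muscle were -0.59, -0.56 and -0.63, with adjusted p of 0.194, 0.246 and 0.843. At 0 h the untrained difference was called without sedentary replicate 3, at -0.88 with an adjusted p of 0.0479.

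By 72 h the trained libraries held 5.92, 6.69 and 5.71 TPM of Il15, all above the trained 6 h libraries. The step was +0.80 (SE 0.27, adjusted p = 0.0784) and was not called, and 31.2% of all tested genes stood apart in it. Between trained and untrained muscle the differences were -0.53 at 6 h (adjusted p = 0.312) and +0.34 at 72 h (adjusted p = 0.602). In the order of group means sedentary muscle stood highest at 8.05 ± 3.71 TPM and trained 6 h lowest at 3.30 ± 0.49 TPM. Trained 72 h stood next to sedentary muscle, the untrained groups lay between, and each group overlapped its neighbour in that order.

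Il15ra, which binds and presents the Il15 protein, held 5.92 ± 0.90 TPM in sedentary muscle. At 6 h it held 12.1 ± 0.81 TPM in untrained muscle and 13.8 ± 1.69 TPM in trained muscle. These rises were +0.99 (SE 0.13, adjusted p = 0.000125) and +1.16 (SE 0.13, adjusted p = 5.88e-05), with all libraries higher than the sedentary ones. In these comparisons 20.4% and 28.9% of all tested genes stood apart. The 2 states at 6 h differed by +0.17 (SE 0.13, adjusted p = 0.528). It then fell to 6.92 ± 0.68 and 6.70 ± 0.34 TPM at 72 h, by -0.77 and -0.98 (adjusted p = 0.00127 and 0.000194). Of 15 receptor genes listed here beside the myokines, 8 were tested, and Il15ra was the only one called in any comparison with sedentary muscle. The 8 include Npr1 and Npr2, which are receptors for the natriuretic peptides and not for a listed myokine. The median change of the 8 was 0.0636 at untrained 6 h and 0.0709 at trained 6 h, against 0.0148 and -0.0146 for all genes.

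Fndc5 varied least, and at 6 h its level in trained muscle exceeded that in untrained muscle. It lies on chromosome 4, from base 129030397 to 129041865 on the plus strand. The untrained 6 h libraries held 19.7, 17.2 and 17.6 TPM and the trained 6 h libraries 25.96, 22.4 and 24.3 TPM. All 3 trained libraries lay above all 3 untrained ones. The difference was +0.40 on the log2 scale (SE 0.09, 95% interval 0.21 to 0.59, adjusted p = 0.0153), or 1.32-fold, past the limit on p but under the threshold on size, so it was not called. The libraries of 18.9% of all tested genes stood apart in this comparison. Sedentary libraries held 17.4, 21.1 and 22.1 TPM, below all of trained 6 h, with a difference of +0.26 (SE 0.09, adjusted p = 0.0792). Against sedentary muscle 28.9% of all tested genes stood apart at trained 6 h. The untrained 6 h difference from sedentary muscle was -0.14 (SE 0.09, adjusted p = 0.394).

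At 0 h and 72 h Fndc5 stood at 17.6 to 22.5 TPM in all 12 columns of the exercised groups, within or close to the sedentary range. Trained and untrained muscle differed there by +0.10 (95% interval -0.09 to 0.29) and +0.06 (95% interval -0.13 to 0.25). The 0 h groups share a library, and without it the 0 h difference was +0.15. Slow fibre markers moved beside the 6 h difference. The summed level of the 7 slow fibre markers, all tested, was 380 to 1130 TPM in trained 6 h and 246 to 371 TPM in untrained 6 h muscle, with 535 to 1005 TPM in sedentary muscle, and 1 of the 7 was called higher in trained muscle. Over the 20 libraries, Fndc5 had a Pearson r of 0.478 with that sum, -0.602 with the sum of the 8 fibre markers and -0.501 with the macrophage sum, where libraries share their TPM total. The part of fibre type in the Fndc5 values was not tested. The S100pbp gene overlaps Fndc5 on the genome, and the kit does not mark strand, so that reads from the overlap cannot be told apart. S100pbp held 0.942 to 1.42 TPM, and it differed by +0.14 at 6 h (SE 0.11, adjusted p = 0.551).

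Ostn showed lower values in trained muscle late after the bout, without a call. The gene lies on chromosome 16, from base 27125355 to 27171028 on the plus strand. Sedentary libraries held 2.93, 3.80 and 2.78 TPM. Trained libraries held 1.84, 1.23 and 2.51 TPM at 6 h and 1.30, 1.95 and 1.76 TPM at 72 h. All 6 of these lay below all sedentary libraries, but the differences of -0.66 (SE 0.28, adjusted p = 0.158) and -0.76 (SE 0.28, adjusted p = 0.297) did not pass the test. The libraries of 28.9% and 19.4% of all tested genes stood apart from sedentary muscle at these times. Untrained 72 h libraries held 3.02, 3.66 and 2.43 TPM, all above the trained ones, and the difference between the states was -0.70 (95% interval -1.30 to -0.10, adjusted p = 0.257). In that comparison the libraries of 28.5% of all genes stood apart, most of them lower in trained muscle, and the median over all genes was -0.0787. At 0 h the untrained libraries spanned 1.77 to 3.81 TPM and the trained ones 2.26 to 3.70 TPM, both across the sedentary range. Untrained 6 h libraries held 1.75, 3.47 and 1.54 TPM, and the difference of -0.47 (SE 0.28, adjusted p = 0.369) was within their spread. Npr1 and Npr2, receptors for the natriuretic peptides with which osteocrin shares a clearance receptor, passed the expression filter and Npr3, the clearance receptor itself, did not.

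Sparc stood higher than sedentary at 0 h in both states and from 6 h on was lower in the trained than the untrained state, in each case short of a call. It lies on chromosome 11, from base 55285317 to 55314067 on the minus strand. Sedentary libraries held 50.3, 58.6 and 54.9 TPM. Untrained 0 h libraries held 69.2, 64.0 and 66.2 TPM and trained 0 h libraries 69.2, 72.7 and 64.1 TPM, where 69.2 is the shared library. All stood above the sedentary ones. The differences were +0.28 (SE 0.13, adjusted p = 0.186) and +0.33 (SE 0.13, adjusted p = 0.112), and the median of all genes at these times was itself +0.105 and +0.133. In these comparisons the libraries of 27.2% and 29.1% of all tested genes stood apart. Untrained libraries stayed at 58.9 to 68.6 TPM at 72 h, above all sedentary ones, with a difference of +0.22 (adjusted p = 0.905). At that time 12.2% of all tested genes stood apart from sedentary muscle.

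Trained 6 h libraries held 49.0, 45.4 and 51.9 TPM of Sparc, all below the trained 0 h libraries. The step was -0.49 (SE 0.13, adjusted p = 0.0122), under the threshold on size, while the median of all genes moved by -0.151. Without the shared library it was -0.48 with an adjusted p of 0.0442. The libraries of 41.1% of all tested genes stood apart between trained 0 h and 6 h. Untrained 6 h libraries held 51.1, 77.2 and 70.4 TPM, of which replicate 1 lay with the trained ones. The difference between the states was -0.42 (SE 0.13, adjusted p = 0.0784), and without that replicate it was called, at -0.59 with an adjusted p of 0.00362. At 72 h the trained libraries held 53.5, 52.0 and 41.5 TPM, all below the untrained ones, and the difference was -0.38 (SE 0.13, adjusted p = 0.182). Between the states at 72 h, 28.5% of all tested genes stood apart. From 6 h to 72 h trained muscle moved by -0.00 (95% interval -0.27 to 0.27).

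Markers of several other cell types moved with Sparc, macrophages most. The sum of the 8 macrophage markers was 39.5 to 43.4 TPM in sedentary muscle, 49.6 to 54.6 TPM at untrained 0 h, 49.6 to 50.1 TPM at trained 0 h and 56.9 to 61.5 TPM at untrained 72 h. At 6 h it was 35.2 to 74.2 TPM in untrained muscle and 33.3 to 48.8 TPM in trained muscle, and at trained 72 h it was 41.7 to 47.9 TPM. Adgre1 was the defining marker below 1 TPM, and none was at 0. Over the 20 libraries Pearson r with Sparc was 0.788. Satellite cell sums (6 markers, 2 tested, with Pax7, Myf5, Calcr and Vcam1 below 1 TPM) had an r of 0.687. They were 7.82 to 9.94 TPM in sedentary muscle, 12.8 to 20.5 TPM at untrained 0 h and 16.1 to 20.5 TPM at trained 0 h, where 1 of the 2 tested markers rose in both states. Tenocyte sums (5 markers, Mkx below 1 TPM) had an r of 0.603, with 55.5 to 62.96 TPM at trained 0 h and 26.1 to 38.4 TPM at trained 6 h. Pericyte and smooth muscle sums had an r of 0.579, neutrophil sums 0.682, with all 6 of their markers below 1 TPM, and muscle fibre sums 0.506. Sums for fibro-adipogenic cells, the main matrix-making cells of muscle, had an r of 0.505 with Sparc and ranged from 340 to 717 TPM at untrained 6 h, from 440 to 458 TPM in sedentary and from 434 to 482 TPM at trained 6 h. The part of these cells in the Sparc values was not tested.

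Other matrix transcripts gave more calls than Sparc did. Of 25 extracellular matrix genes, all tested, 8 fell at trained 6 h against sedentary muscle (Col15a1, Col1a1, Col3a1, Col5a1, Col6a1, Col6a2, Fbn1 and Loxl2) and 0 rose. The called share of all genes there was 3.85%. In the fit without the shared 0 h library 7 fell, since Col1a1 was not called (adjusted p = 0.0665). The median change of the 25 was -0.399, against -0.0146 for all genes. Col3a1, a fibrillar collagen, went from 29.6 ± 12.6 to 11.6 ± 6.11 TPM (-1.35, SE 0.36, adjusted p = 0.0258), and Fbn1, a microfibril protein, changed by -1.02 (SE 0.18, adjusted p = 0.00168). At untrained 6 h, Fbn1 fell and Serpinh1 rose, beside 4.42% of all genes called, with a median of -0.110 over the list. The Fbn1 call was lost in the fit without the shared library (adjusted p = 0.0581). Serpinh1, the collagen chaperone HSP47, was the list member that rose at 0 h, from 18.6 ± 2.60 TPM to 51.1 ± 9.74 TPM in untrained muscle (+1.43, SE 0.23, adjusted p = 0.000803) and 46.0 ± 14.4 TPM in trained muscle (+1.25, SE 0.23, adjusted p = 0.00247). The called shares of all genes at 0 h were 3.59% and 3.74%. At 6 h Serpinh1 held 39.7 ± 11.5 TPM in untrained muscle and 12.5 ± 1.30 TPM in trained muscle, a difference of -1.60 (SE 0.23, adjusted p = 0.000789). Tested directly between the states at 6 h, 2 of the 25 were called, Col5a1 and Serpinh1, both lower in trained muscle. There 2.01% of all genes were called, and the list median was -0.314 against -0.0365. Without the shared library 1 of the 25 was called. Between 6 h and 72 h, 9 matrix genes rose in untrained muscle and 4 in trained muscle (3 in the fit without the shared library). The called shares of all genes were 4.04% and 3.48%. List medians were 0.568 and 0.385, against 0.0179 and -0.0269 for all genes.

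Il6, Lif, Gdf15 and Fgf21 stayed near 0 throughout. Il6, the first cytokine described as a myokine, lies on chromosome 5, from base 30218112 to 30224979. Sedentary libraries held 0.0594, 0 and 0.0611 TPM. Untrained 0 h libraries held 0.0844, 0.1497 and 0.103 TPM and untrained 6 h libraries 0.117, 0.114 and 0.101 TPM. All 6 lay above the sedentary values. Trained libraries held 0.0844, 0.0539 and 0.190 TPM at 0 h and 0.129, 0.0719 and 0.108 TPM at 6 h. The trained 6 h libraries also lay above the sedentary values, and the trained 0 h ones overlapped them. Among the tested genes, which leave out Il6, 27.2% stood apart from sedentary at untrained 0 h, 20.4% at untrained 6 h and 28.9% at trained 6 h. In a limma fit with no filter on expression, over all 53738 symbols, the differences on the log2(TPM + 0.5) scale were +0.18 in both untrained groups (SE 0.08, adjusted p = 0.418 and 0.482), +0.17 at trained 0 h (adjusted p = 0.451) and +0.16 at trained 6 h (adjusted p = 0.567). The added 0.5 is larger than any of these values, so such differences understate a ratio.

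Lif, a muscle cytokine of the same family, lies on chromosome 11, from base 4207557 to 4222514. It held 0.0755, 0.0875 and 0.160 TPM in sedentary muscle and 0.0449, 0.0364 and 0.0563 TPM at trained 6 h. All 3 trained libraries were lower, by -0.15 (SE 0.07, adjusted p = 0.516) in the fit with no filter. Among the tested genes, which leave out Lif, 28.9% stood apart in this comparison. Untrained 6 h libraries held 0.119, 0.0843 and 0.120 TPM, and the states differed by -0.15 (SE 0.07, adjusted p = 0.636). Neither difference passed the test.

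Gdf15, a hormone that signals through a receptor of the hindbrain, lies on chromosome 8, from base 71082038 to 71091537. No difference of it had an adjusted p below 0.05. The lowest in the limma fit with no filter was 0.0730, for untrained 6 h against untrained 0 h (-0.19), where the libraries overlapped. Sedentary libraries held 0.0344, 0.0115 and 0.00982 TPM, untrained 0 h libraries 0.0886, 0.0444 and 0.156 TPM and trained 0 h libraries 0.0886, 0.0514 and 0.0479 TPM. All 0 h libraries lay above all sedentary ones. In the fit with no filter the untrained difference was +0.20 (SE 0.05, unadjusted p = 0.00192, adjusted p = 0.0841) and the trained one +0.12 (SE 0.05, adjusted p = 0.432). Without the shared library they were +0.21 (adjusted p = 0.172) and +0.08 (adjusted p = 0.832). Among the tested genes, which leave out Gdf15, 27.2% and 29.1% stood apart in these comparisons. By 6 h Gdf15 was listed at 0 in 1 untrained library and in 2 trained ones, with 0.0471 TPM as the highest value.

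Fgf21, a hormone of the fasting and stress responses, lies on chromosome 7, from base 45263301 to 45266963. It was listed at 0 in 11 of the 20 distinct libraries. The highest value was 0.0653 TPM, in the library shared by the 0 h groups, and sedentary libraries held 0.0135, 0.0152 and 0.0536 TPM in ascending order. No exercised group lay apart from the sedentary one in the upward direction. The gene overlaps Fut1, which held 0 to 0.0811 TPM.

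**Figure D4:**
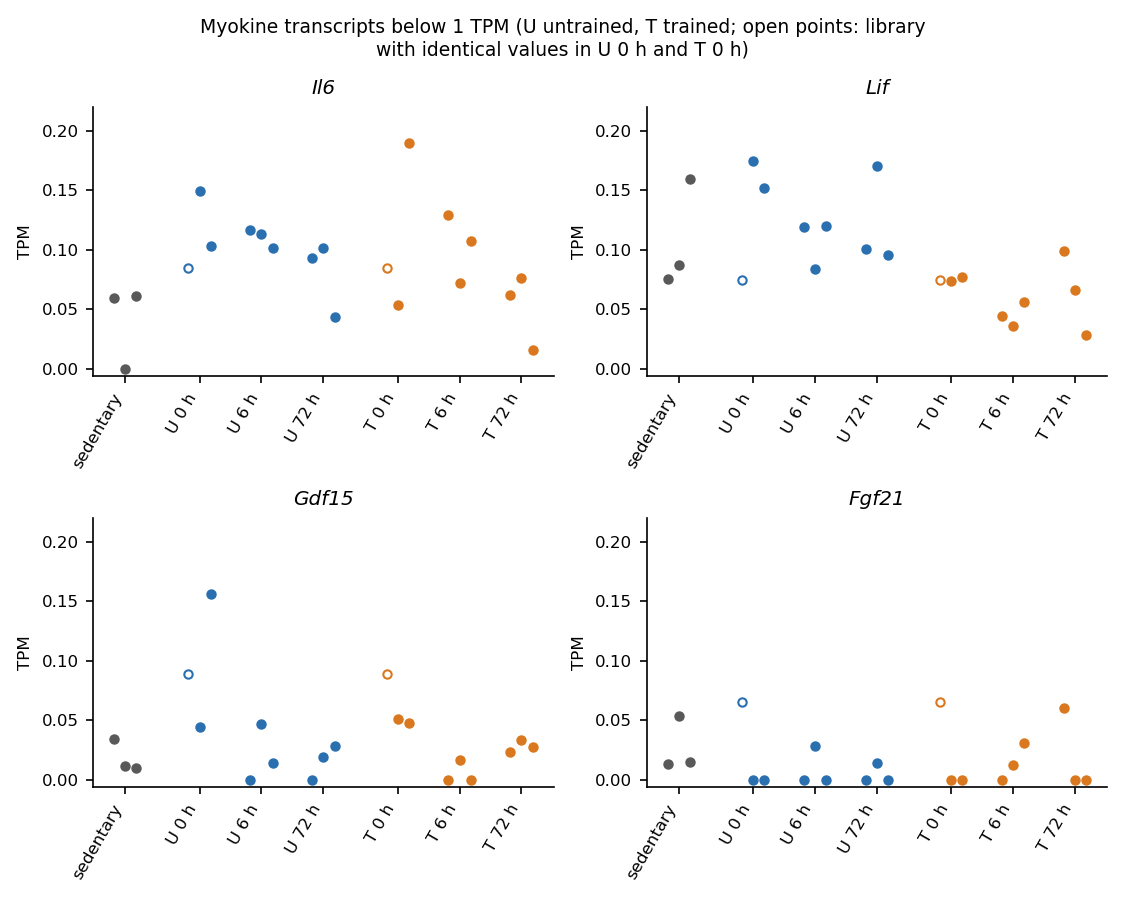
TPM of the 4 transcripts below 1 TPM in each library (points) by group, on the same axis from 0 to 0.22 TPM. Blue marks untrained and orange trained muscle, and open points are the library found in both 0 h groups. Gdf15 stands above sedentary muscle at 0 h in both states, and Fgf21 is listed at 0 in most libraries.

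Promoter sequence was read for the members with a RefSeq window, from 250 bases before to 50 after a start site, since transcripts of factors that bind such elements rose after the bout. RefSeq held 8 windows for 7 of the 9 members, and each matched GRCm39 at a single place. Motifs were searched on both strands: CRE (TGACGTCA), AP-1 (TGANTCA, which reads the same on both strands), the ATF4 composite element (TGATGNAAN), the ERR site (TCAAGGTCA), the heat shock element (GAANNTTC) and MEF2. They occurred in 1.79%, 7.81%, 3.96%, 0.424%, 7.86% and 0.558% of 32817 such windows. Matches lay in the windows of 3 members, all among those below 1 TPM, and are shown in capitals within 30 bases of the strand of the gene.
Il6 (AP-1, chr5:30217862-30217891, plus strand): cTGAGTCActtttaaagaaaaaaaagaaga
Lif (AP-1, chr11:4207329-4207358, plus strand): ccagtcagctgTGACTCAggccatagtggc
Fgf21 (ATF4 composite on the opposite strand, chr7:45265035-45265064, minus strand): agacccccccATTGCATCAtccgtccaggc
The windows of Fndc5, Metrnl, Gdf15 and Sparc held none of the 6 motifs. A match is a run of letters and does not show that a factor binds there. Atf3 and Junb, which encode AP-1 family factors, rose at 0 h in both states. Atf3 went from 0.841 ± 0.102 TPM to 34.0 ± 2.06 TPM in untrained muscle and 39.4 ± 14.2 TPM in trained muscle (adjusted p = 1.82e-05 and 1.25e-05), and Junb changed by +3.24 in untrained (SE 0.18, adjusted p = 2.48e-08) and +3.72 in trained muscle (SE 0.18, adjusted p = 4.58e-09).

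Some genes that respond to such cytokines did change while Il6 and Lif stayed low. Of 12 targets of IL-6 type cytokines, 9 were tested. Junb and Pim1 rose at untrained 0 h, and Cebpd, Junb and Pim1 rose at trained 0 h, of which Cebpd was not called without the shared library. Cebpd and Stat3 rose at untrained 6 h, Stat3 by +0.70 (SE 0.18, adjusted p = 0.0205). The called shares of all genes were 3.59% at untrained 0 h, 3.74% at trained 0 h and 4.42% at untrained 6 h. At trained 6 h 0 were called in limma, with 3 of the 9 at an unadjusted p below 0.05 beside 24.1% of all genes. The median of the 9 was 0.366 against 0.703 at untrained 6 h. Tested directly between the 2 states at 6 h, 0 of the 9 were called, beside 2.01% of all genes. In that test 0 had an unadjusted p below 0.05, beside 18.3% of all genes, and the median was -0.2 against -0.0365. Junb and Pim1 are induced by many other signals. The shared receptor chain Il6st held 38.4 ± 4.62 TPM and Lifr, the second chain for Lif, 3.85 ± 0.09 TPM in sedentary muscle, and neither was called in any comparison with it.

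Gdf15 and Fgf21 are known targets of the integrated stress response, the programme run by the factor ATF4, and some listed genes of that response were called. Of 19 listed, 12 were tested. At 0 h, Atf3, Cebpb, Ppp1r15a and Slc3a2 rose in both states and Pck2 fell in untrained muscle. The called share of all genes was 3.59% in untrained and 3.74% in trained muscle. Medians of the 12 were 0.209 in untrained and 0.155 in trained muscle, against 0.105 and 0.133 for all genes. Slc3a2 was not called at trained 0 h without the shared library (adjusted p = 0.0644). At 6 h, Atf3, Atf4, Cebpb and Ppp1r15a rose in untrained and Atf3 and Cebpb in trained muscle, beside 4.42% and 3.85% of all genes called. Atf4, picked out after its values were seen, went from 48.5 to 73.4 TPM at untrained 6 h (+0.60, SE 0.12, adjusted p = 0.00458). Atf3 and Ppp1r15a differed between the states at 6 h, where 2.01% of all genes were called. Atf3, a stress-induced repressor, held 109 ± 40.0 TPM in untrained muscle and 14.3 ± 15.8 TPM in trained muscle, a difference of -3.38 (SE 0.51, adjusted p = 0.00118), and Ppp1r15a, which ends the block on translation, differed by -0.61 (SE 0.16, adjusted p = 0.0425). At 72 h 0 genes of the list were called in either state, with 3 and 4 of the 12 at an unadjusted p below 0.05, beside 5.77% and 11.7% of all genes.

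Clock genes were called in 5 of the 6 exercised groups, both in groups with a called myokine and in groups without one. The times of day at which the groups were killed are not given in the sources used here. Of 15 clock genes 14 were tested. Ciart and Per1 rose at untrained 0 h, and Ciart, Per1 and Per2 rose and Nr1d1 fell at trained 0 h. The called shares of all genes were 3.59% and 3.74%. Cry2 and Per1 rose and Nr1d1 fell at trained 6 h, while Cry2, Per1 and Per2 rose and Nr1d1 fell at untrained 6 h. Of all genes, 3.85% and 4.42% were called there. At 72 h, Per1 rose and Arntl fell in trained muscle, beside 0.169% of all genes called. Trained muscle then stood above untrained muscle in Ciart and Per1 and below it in Arntl, beside 0.245% of all genes. In the fit without the shared 0 h library, 4 clock genes were called higher in each of these 72 h comparisons, and 3 rose at untrained 0 h and at trained 6 h. Nr1d1, which encodes the repressor REV-ERBα, changed at 6 h from sedentary muscle by -2.02 in trained (SE 0.16, adjusted p = 7.81e-06) and -0.94 in untrained muscle (SE 0.16, adjusted p = 0.00126). Trained and untrained muscle differed in it at 6 h by -1.08 (SE 0.16, adjusted p = 0.00108). The part of time of day in the values of Metrnl, Il15 and Fndc5 was not tested.

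The 5 tested myokines did not share a pattern over the libraries. Pearson r between pairs of them, on the log2 scale over the 20 distinct libraries, ran from -0.447 for Fndc5 with Sparc to 0.437 for Ostn with Sparc. Values of r are given as descriptions, since libraries of a group share their treatment and all share the TPM scale. Among 11818 other tested genes, those most like Metrnl were Gosr1 (r 0.879), Fastkd1 (0.878) and Tmem129 (0.877). Most like Fndc5 were Tstd3 (0.890), P2ry1 (0.866), a purine receptor, and Lpl (0.832), the lipoprotein lipase. Sparc ran closest with S100a10 (0.946), Emp1 (0.933) and Anxa2 (0.927), of which the first and the last encode partners in the annexin A2 complex. Ostn had Ctsa (0.802), Dcaf15 (0.790) and Suv39h1 (0.775) nearest to it, and Il15 had Aktip (0.738), Atxn1l (0.727) and Gm22079 (0.709), the lowest values of the 5.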

How the data were processed

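Bulk RNA was isolated from quadriceps muscle in 7 groups, with 3 columns of values each and 20 distinct libraries in all, and prepared with a TruSeq RNA kit, which does not mark strand. Reads were aligned by the authors with STAR 2.7.9 (build GRCm39), and the deposited TPM values per gene symbol come from Salmon 1.5.0, which correct for transcript length and scale each library to the same total. Column totals were 997304 to 997921 TPM. TPM values hold no read counts, so the depth of the libraries is unknown and precision rests on the spread between libraries.

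TPM values were used as deposited, on the log2(TPM + 0.5) scale, for the 11819 genes averaging 1 TPM or more across the 21 columns. Group means were estimated in a linear model in limma (version 3.58.1, R version 4.3.3) that lets the variance follow expression, leaving 14 residual degrees of freedom. The 13 comparisons were each exercised group against sedentary, trained against untrained at each time, and the steps from 0 h to 6 h and 6 h to 72 h. P-values were adjusted over all tested genes of a comparison (Benjamini-Hochberg). The step was tested on simulated data. Besides the members, the text names for each tested member the 3 genes most correlated with it, and up to 4 genes of a list, those called in most comparisons with sedentary muscle. Genes of a list that counts refer to are also named, and Ppargc1a, Esrrg, Atf4 and overlapping genes were added after their values were seen. The members and all lists (receptors, other secreted factors, stress response, PGC-1 signalling, IL-6 type targets, matrix, clock and cell type markers) were chosen with earlier results of these data known. Gene positions came from the GENCODE annotation of GRCm39. Promoter sequences came from RefSeq (table build GRCm38.p6) and were matched to GRCm39. The alternatives tried were other pseudocounts, filters, scalings and variance models, a fit of the compared groups alone, no threshold on size, a replicate block, and leaving out libraries. Plots used matplotlib (version 3.10.9, Python version 3.11.15).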

Additional observations from a re-analysis of the deposited data

Results flagged for a closer look

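Fndc5 differed between trained and untrained muscle at 6 h by +0.40 on the log2 scale (SE 0.09, limma adjusted p = 0.0153). It was picked out because the levels of the 2 training states at the same time after the bout differed in a test of that difference. It passed the limit on p but was under the threshold on size and was not called, and with no trained group without a bout a difference in response cannot be told apart from a difference in level that training alone gives. All 3 trained libraries, at 22.4 to 25.96 TPM, lay above all 3 untrained ones, at 17.2 to 19.7 TPM. Such a separation was found for 18.9% of all tested genes, in either direction. The adjusted p ran from 0.00494 to 0.196 over the other processing choices and reached 0.0805 when single libraries were left out, with the same direction in each.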

How the results depend on the processing

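No called value changed direction under the alternatives run. Member calls against sedentary muscle numbered 3, and 1 with no filter on expression or with only the groups compared in the fit. Trained against untrained muscle gave 0, and 1 with no threshold on the fold change. Recovery steps gave 1, 0 at a mean of at least 5 TPM (which leaves Metrnl untested), 3 with no threshold on the fold change, and 2 each with a pseudocount of 0.1, median-of-ratios scaling, rescaling without the mitochondrial genome and the top 10 genes, or only the groups compared. Leaving out single libraries gave 1 to 4, 0 to 1 and 1 to 2 calls. Metrnl at trained 6 h was called in every alternative that tested it, at +0.63 to +0.84 and an adjusted p of at most 0.0469. In the limma fit without the shared 0 h library, the adjusted p was 0.00907 for Metrnl and 0.0239 for Il15 at trained 6 h. It was 0.0208 there for Fndc5 between the states at 6 h, so each was higher than in the main fit. Il15 at trained 6 h lost its call with no filter (adjusted p = 0.0700), with only the groups compared (0.140) and without sedentary replicate 2 or trained 6 h replicate 3, and Il15 at trained 0 h in those 2 fits too (0.142 and 0.243). The cause was not tested.

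With a replicate block the counts were 2, 0 and 1, and the call lost was Il15 at trained 0 h (adjusted p = 0.063). The numbers do not pair the samples: same-numbered libraries of different groups correlated at a median of 0.018 (n = 62 pairs), other libraries at -0.00516 (n = 126). Rescaling moved the median of all genes by over 0.1 at untrained 0 h (-0.109 and -0.157), trained 0 h (-0.136 and -0.171), from trained 0 h to 6 h (+0.15 and +0.188) and, in 1 rescaling, between the states at 72 h (+0.101). Depth is unknown, so no counting error can be given for the 4 transcripts below 1 TPM. The true group of the library found at 0 h in both states is unknown.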

Other observations

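Other factors known to be secreted by muscle were followed as a list. Of 32 listed, 31 were in the table and 16 were tested. Against sedentary muscle 1 of 16 was called at untrained 0 h, 1 at untrained 6 h and 1 at trained 6 h, beside 3.59%, 4.42% and 3.85% of all genes. Igf1, a growth factor of muscle repair, went from 2.23 ± 0.12 TPM (SD, n = 3) to 4.78 ± 2.74 TPM at untrained 6 h (+0.83, SE 0.25, adjusted p = 0.0449), and was not called in the fit without the shared 0 h library (adjusted p = 0.0677). Fst, which encodes the myostatin inhibitor follistatin, went from 1.44 ± 0.25 to 0.737 ± 0.131 TPM at trained 6 h (-0.65, SE 0.18, adjusted p = 0.0306). Bmp4, a morphogen of the TGF-β family, held 2.07 ± 0.71 TPM in sedentary and 0.816 ± 0.158 TPM in untrained 0 h muscle (-0.94, SE 0.27, adjusted p = 0.0461), and 2.18 ± 0.40 TPM at untrained 6 h. Between trained and untrained muscle at 6 h, Tgfb2 was lower in trained muscle, a call that was lost without the shared library. The median change of the 16 at trained 6 h was -0.0793, against -0.0146 for all genes.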
